A study of Mus musculus with 7 samples.

Results

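Of 55487 genes in the count table, 174 had 10 or more counts in both libraries of GFI1+ intra-aortic hematopoietic cluster (IAHC) cells stimulated with Fc-JAG1 and under 10 counts in each of the 3 washout libraries. They are called the on/off genes here. They made up 1.69% of the 10311 genes that passed the filter of the authors and 2.53% of the 6890 genes with 10 or more counts in both Fc-JAG1 libraries. The raw counts of Fc-JAG1 1, Fc-JAG1 3, washout 1, washout 2 and washout 3 chose the genes, so their levels in those 5 libraries are a description with no test. The 2 libraries with compE did not enter the choice.

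The study asked how sorted IAHC cells of the aorta-gonad-mesonephros region of mouse embryos at E11.5 transcribe their genes when Notch signaling is changed. Cells that were CD31+cKIT+GFI1+ came from a strain labelled CD1/Gf1+, which carries a tomato reporter at Gfi1, and each group here spent a night in compound E (compE, a γ-secretase inhibitor) before it was washed and split into sets of 300 to 400 cells. The sets were kept for 4 hours in methylcellulose with growth factors and 0.3 mM ethynyl uridine, which marks newly made RNA for capture. Fc-JAG1 1 and 3 received recombinant Fc-JAG1, compE 1 and 2 received compE again, and washout 1, 2 and 3 received DMSO. The sources differ in the unit of the compE dose (10 mM in the labels and 10 μM in the methods) and of the Fc-JAG1 dose (4 mg/ml in the labels and 4 μg/ml in the methods). The labels name an embryo for each number, whereas the methods describe pools of embryos. The labels give 14 cycles of cDNA pre-amplification, and the methods give fewer. A second Fc-JAG1 library was excluded by the authors for a low share of uniquely aligned reads.

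As background, Notch receptors are cleaved by γ-secretase after a ligand on a neighbouring cell pulls on them, and the freed intracellular domain joins the DNA-binding protein RBPJ at target genes. A ligand on the same cell can instead hold the receptor inactive, and JAG1 and NOTCH1 of the cluster cells were studied for such an interaction. The clusters that bud from the wall of the dorsal aorta contain the first hematopoietic stem cells of the embryo. Each count below is a count of uniquely aligned reads per gene, and CPM is that count scaled to the total of its library.

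The 7 libraries held 21652927 to 33974693 counts, yet they differed in how many genes they detected. Genes with 10 or more counts numbered 11600 and 8006 in Fc-JAG1 1 and 3, 8096 and 12083 in the compE libraries, and the washout libraries had 6265, 12351 and 7585 in the order of their numbers. Of the genes on in both Fc-JAG1 libraries, 2617 were under 10 counts in washout 1 and 1942 in washout 3, against 292 in washout 2. The labelled cells carried their markers Kit and Runx1 in every library, but Pecam1, which encodes the sort marker CD31, had 11 counts in Fc-JAG1 3 and 18 in washout 1 against 1186 to 6314 in the other libraries. Ptprc (CD45) had 3 counts in washout 3 against 2183 to 19875 elsewhere. Cdh5 was at 0 to 3 counts outside washout 1, and Gfi1 reached 2504 counts in Fc-JAG1 1 and 2477 in washout 3 against 0 to 12 in the other libraries. Markers of mesenchyme, neural cells and epithelium summed to at most 38.8 CPM in any library. Erythrocyte markers summed to 144 and 82.8 CPM with Fc-JAG1, to 22.2 and 229 CPM with compE and to 20.1, 534 and 39.0 CPM in the washout, and macrophage markers to 566 and 450, 92.4 and 441, and 417, 558 and 373 CPM. Their part in the results was not tested. In bulk libraries, fewer cells that transcribe a gene and less RNA per cell cannot be told apart.

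Promoters were examined because RBPJ binds a core spelled TGGGAA. The pattern that the on/off genes share is the rule that chose them. RefSeq promoters (GRCm38.p6, 250 bases before to 50 after the RefSeq gene start) matched 117 of the 174 genes. On both strands, 28 of the 117 held TGGGAA (23.9%, against 22.5% of 7764 promoters of genes that passed the filter and 25.5% of all 27025), and 9 held the longer GTGGGAA, which contains it (7.69%, against 6.002% and 6.38%). The 9 were those of Chd1l, Hoga1, Casc1, Nsun7, Zfp937, Acsf2, Slc27a1, Zfp72 and E130114P18Rik. RefSeq starts can differ from those of GENCODE. The promoter of E130114P18Rik (chr4:97584542-97584841, minus strand) lay inside the gene as GENCODE places it (chr4:97568133-97778078). A match describes letters and is no binding site. The promoters below, with GTGGGAA in capitals, are examples in which the match lay on the strand of the gene, as it also did for Casc1 and Zfp72, which are not shown. The match began 65 bases before the start of Chd1l (chr3:97610141-97610440, minus strand), 68 before Hoga1 (chr19:42045620-42045919, plus strand), 218 before Zfp937 (chr2:150217849-150218148, plus strand) and 87 before Slc27a1 (chr8:71568621-71568920, plus strand).
Chd1l: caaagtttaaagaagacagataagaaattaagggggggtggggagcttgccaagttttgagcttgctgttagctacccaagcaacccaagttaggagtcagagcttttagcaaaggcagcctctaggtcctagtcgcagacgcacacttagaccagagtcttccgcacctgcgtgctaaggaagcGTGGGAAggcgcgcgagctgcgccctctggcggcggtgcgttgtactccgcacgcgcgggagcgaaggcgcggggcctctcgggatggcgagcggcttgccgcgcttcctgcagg
Hoga1: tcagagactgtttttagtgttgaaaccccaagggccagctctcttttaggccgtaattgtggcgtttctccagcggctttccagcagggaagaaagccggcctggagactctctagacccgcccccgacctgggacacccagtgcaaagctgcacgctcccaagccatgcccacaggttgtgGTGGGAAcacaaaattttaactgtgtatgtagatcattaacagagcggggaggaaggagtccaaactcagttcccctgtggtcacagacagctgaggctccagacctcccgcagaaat
Zfp937: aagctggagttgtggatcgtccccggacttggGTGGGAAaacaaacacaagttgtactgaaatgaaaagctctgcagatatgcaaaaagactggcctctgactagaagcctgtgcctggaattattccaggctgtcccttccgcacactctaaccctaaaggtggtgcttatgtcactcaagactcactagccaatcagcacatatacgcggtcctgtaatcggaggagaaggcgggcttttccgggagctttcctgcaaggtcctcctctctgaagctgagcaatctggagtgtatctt
Slc27a1: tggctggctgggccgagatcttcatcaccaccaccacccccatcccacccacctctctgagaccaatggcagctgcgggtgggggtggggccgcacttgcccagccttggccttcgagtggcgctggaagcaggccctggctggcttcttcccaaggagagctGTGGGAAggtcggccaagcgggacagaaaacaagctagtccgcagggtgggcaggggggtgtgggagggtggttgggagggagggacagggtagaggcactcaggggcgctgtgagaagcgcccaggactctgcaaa

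Chd1l, a PARP-activated chromatin remodeler of DNA repair, had 2864 and 216 counts with Fc-JAG1, 18 and 1061 with compE and 2, 8 and 6 in the washout. Hoga1, a mitochondrial aldolase of hydroxyproline breakdown, had 161 and 114 counts with Fc-JAG1, 0 and 1 with compE and 2, 1 and 2 in the washout. Slc27a1, a fatty acid transporter, had 2339 and 21 counts with Fc-JAG1, 8 and 286 with compE and 3, 1 and 0 in the washout. The genes with this word thus differed from each other in compE, and Zfp937, a C2H2 zinc finger gene, had only 68 and 78 counts with Fc-JAG1 against 1 and 0 with compE and 0, 4 and 0 in the washout. Other short words stood at 24.8% for the ETS core CCGGAA (29.9% of filtered and 15.2% of all promoters), 4.27% for the E-box CACGTG (10.6% and 7.24%), 7.69% for TATAAA (6.67% and 14.2%) and 52.99% for the GC box GGGCGG (64.7% and 35.9%). The median GC content of the promoters was 57.7% for the on/off genes, 61.2% for filtered genes and 52.7% for all.

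The on/off genes were uneven between the Fc-JAG1 libraries. Summed over all 174, they took 2266 and 5660 CPM with Fc-JAG1, 1247 and 1503 CPM with compE and 12.7, 12.4 and 10.6 CPM in the washout. By CPM, 73 were higher in Fc-JAG1 1 and 101 in Fc-JAG1 3. The higher library exceeded the lower one by a median of 4.28-fold, by 10-fold or more for 49 genes and by under 2-fold for another 49. Among genes on in both Fc-JAG1 libraries, the median was 2.63-fold for those on in 1 or more washout libraries. It was 2.22-fold for those on in all 3, whose level was higher too (median lower Fc-JAG1 CPM of 66.6 against 1.28). The largest gap, 760-fold, was that of Spon1, an extracellular matrix protein, with 10 counts in Fc-JAG1 1 and 6127 in Fc-JAG1 3. The lower Fc-JAG1 count was 10 to 19 for 58 genes, 20 to 99 for 57 and 100 or more for 59, of which 11 reached 1000 in both libraries.

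**Figure D1:**
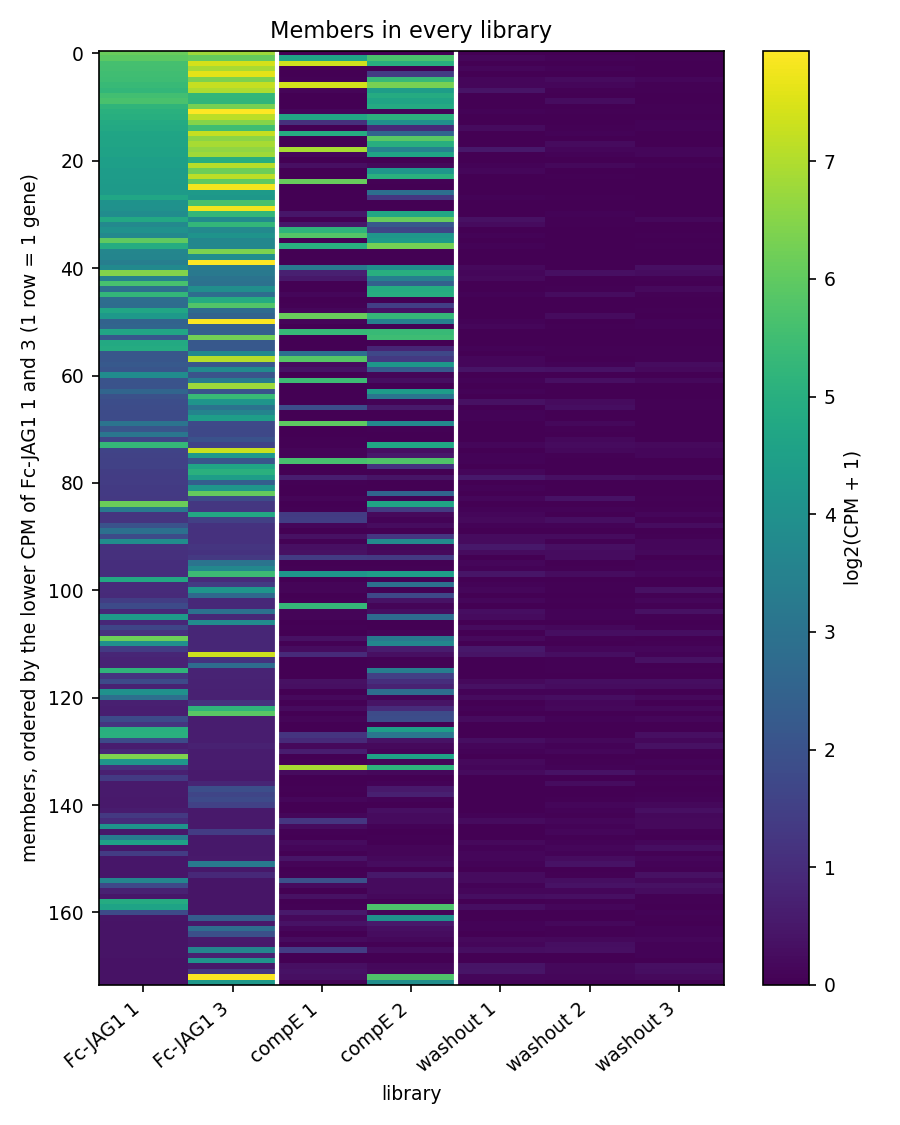
Heat map of the 174 on/off genes (rows, by the lower CPM of the Fc-JAG1 libraries, highest on top) in the 7 libraries (columns), colored by log2(CPM + 1). The washout columns are dark by the rule, Fc-JAG1 1 and 3 differ for many rows, and compE 2 is lit for more rows than compE 1 (90 against 40 genes with 10 or more counts).

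**Figure D2:**
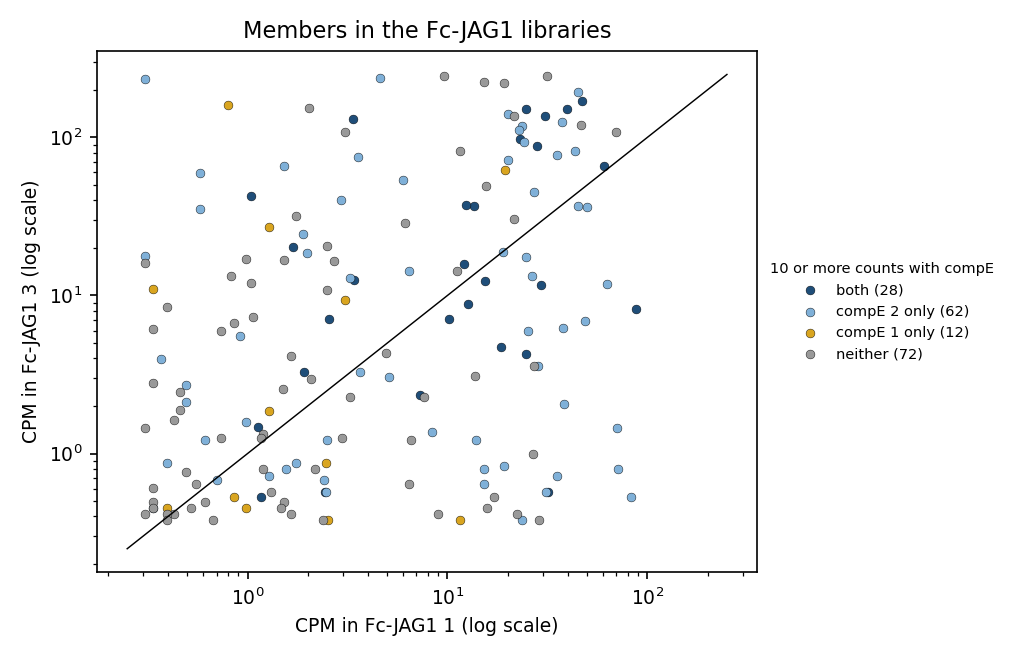
CPM of each on/off gene in Fc-JAG1 1 (x, log scale) and Fc-JAG1 3 (y, log scale), 1 point per gene, colored by the compE libraries in which it had 10 or more counts, with the line of equal CPM. Points spread far from the line, with 101 above it and 73 below.

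In the washout, 42 of the genes had 0 counts in every library, 60 had a highest count of 1 to 3 and 72 of 4 to 9. A count of 0 allows up to 3 counts, or 0.139, 0.0998 and 0.0947 CPM in washout 1, 2 and 3, and covers counting error only, since the libraries carry no molecular identifiers. Near the threshold, 12 genes had a lower Fc-JAG1 count of exactly 10, among them Dusp28, a phosphatase gene with 10 and 420 counts, and Olfr1175-ps with 10 and 11. Another 15 genes missed with 9, among them Ldhd, a lactate dehydrogenase with 9 and 3078 counts with Fc-JAG1 and 0, 0 and 0 in the washout. A highest washout count of 9 was found for 14 genes inside, such as Cmtm8, Cdh11 and Meis2, and 17 missed with 10, such as Plekhg5, with 2290 and 3347 counts with Fc-JAG1, and Mettl8, with 2146 and 2503.

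In compE, where no level had been asked for, 40 of the 174 genes had 10 or more counts in compE 1 and 90 (51.7%) in compE 2, against 71.1% and 92.4% of the 10311 filtered genes. Both compE libraries held 28 of them (16.1%, against 69.1% of filtered genes) and neither held 72 (41.4%, against 5.47%). Another 62 reached 10 counts in compE 2 only and 12 in compE 1 only. The filter asks for 10 counts in at least 2 libraries of a condition, which the on/off genes meet through Fc-JAG1 while other genes can meet it through compE. Among genes on in both Fc-JAG1 libraries, 48.9% of those on in 1 washout library, 71.3% of those on in 2 and 88.5% of those on in 3 were on in both compE libraries. The genes on in 1 washout library were on in washout 2 in 961 of 1044 cases. The level differed along this series too, since the median of the lower Fc-JAG1 CPM was 1.28 for the on/off genes and 11.9, 27.8 and 66.6 for the others. At a lower Fc-JAG1 CPM of 10 or more, 12 of 39 on/off genes (30.8%) were on in both compE libraries, against 55.7% of 557 genes on in 1 washout library. At 1 to 10 CPM it was 13 of 59 (against 46.6% of 264), and under 1 CPM 3 of 76 (3.95%, against 35.0% of 223). The share of the on/off genes was the lower one in all 3 bands of level, a description with no test. Levels still differed within the bands. The median lower Fc-JAG1 CPM was 22.8 against 37.0 at 10 or more, 2.51 against 3.34 at 1 to 10 and 0.491 against 0.520 under 1. The genes set beside the on/off genes were also, by choice, detected in a washout library.

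**Figure D3:**
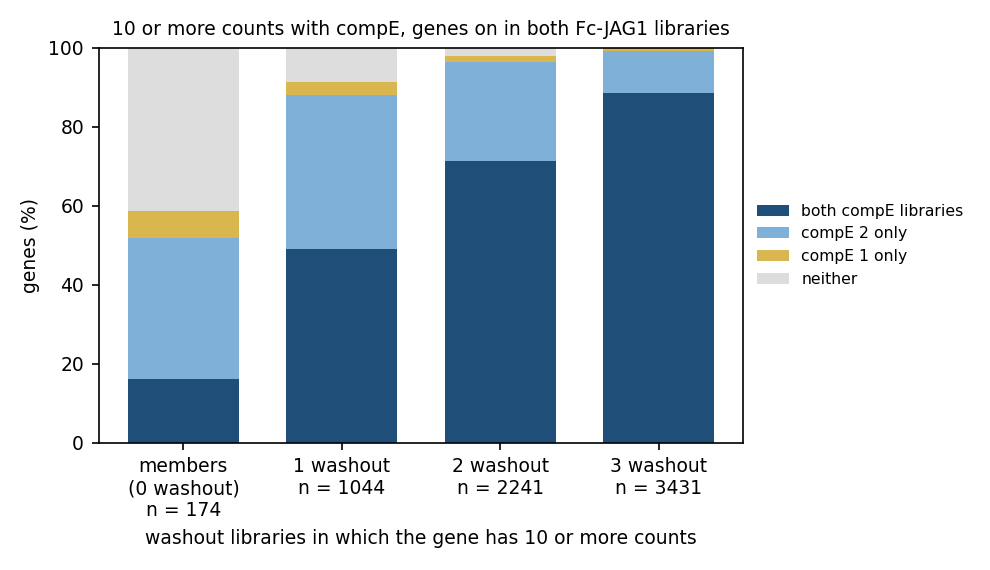
Share of genes (y, %) with 10 or more counts in both compE libraries, compE 2 only, compE 1 only or neither, for the on/off genes and for the other genes on in both Fc-JAG1 libraries by the number of washout libraries in which they were on (x). Both compE libraries held 16.1% of the on/off genes and 88.5% of genes on in all 3 washout libraries.

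The genes with the highest levels in both compE libraries were a mixed group. Zfp518b, a C2H2 zinc finger gene, had 1545 and 4464 counts with Fc-JAG1, 4513 and 1046 with compE and 0, 0 and 0 in the washout. Cdk5, a kinase best known from neurons, had 1000 and 3606 counts with Fc-JAG1, 741 and 1131 with compE and 0, 0 and 0 in the washout. Both genes thus reached the Fc-JAG1 range in at least 1 compE library, and Zfp518b averaged 108 ± 86.4 CPM with Fc-JAG1 and 94.8 ± 90.5 CPM with compE (SD, n = 2 each). Zbtb43, a BTB zinc finger gene, had 1301 and 3966 counts with Fc-JAG1, 4771 and 2657 with compE and 2, 3 and 1 in the washout. Kctd9, an adaptor of cullin ubiquitin ligases, had 964 and 308 counts with Fc-JAG1, 892 and 2634 with compE and 1, 0 and 1 in the washout. Dnajc4, a J-domain protein, had 809 and 113 counts with Fc-JAG1, 1107 and 1348 with compE and 0, 0 and 0 in the washout. For Dnajc4 both compE libraries lay above both Fc-JAG1 libraries. The same order held for Inpp5k, an inositol phosphatase (603 and 124 counts with Fc-JAG1, 1964 and 1305 with compE), for Fbxo8, an F-box protein (63 and 87 against 1379 and 1797), and for Cntrob, a protein of the daughter centriole (38 and 14 against 3360 and 1146), each with 0 to 5 counts in the washout. Over all 174 genes, the higher compE library exceeded the higher Fc-JAG1 library in CPM for 27.

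At the other end, 17 genes had 0 counts in every compE and washout library, and 10 of these had 100 or more counts in both Fc-JAG1 libraries. Selenop, which encodes the plasma protein that carries selenium, had 2270 and 2870 counts with Fc-JAG1 and 0 in the other 5 libraries. Its mean of 89.2 ± 27.9 CPM with Fc-JAG1 (SD, n = 2) was 803-fold the washout floor of 3 counts per library, and its lower library 625-fold. The rule chose the gene by these values, and the floor covers counting error only. Ifi202b, an interferon-inducible gene of mice, had 510 and 1305 counts with Fc-JAG1 and 0 elsewhere. These genes had no read outside the Fc-JAG1 libraries, although their levels within them could differ widely. Ercc5, the endonuclease XPG of nucleotide excision repair, had 314 and 6421 counts with Fc-JAG1, Tmem81, a membrane protein of the sperm, 628 and 5855, and Htra3, a secreted serine protease, 498 and 5891, all with 0 elsewhere. Zc4h2, a zinc finger gene of neural development, had 377 and 2161 counts with Fc-JAG1, and Fam69b, a kinase-like protein of the endoplasmic reticulum, 364 and 374, again with 0 elsewhere. Myo15, a myosin of hair cell stereocilia, was under the threshold without being at 0, with 701 and 3592 counts with Fc-JAG1, 7 and 4 with compE and 1, 4 and 2 in the washout.

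Another pattern, on in compE 2 only, took in many of the highest on/off genes. Ankrd9, an ankyrin repeat protein, had 1475 and 975 counts with Fc-JAG1, 0 and 977 with compE and 0, 0 and 0 in the washout. Slc16a3, the monocarboxylate transporter of lactate export, had 1628 and 951 counts with Fc-JAG1, 0 and 811 with compE and 0, 6 and 0 in the washout. Ccdc51, a subunit of a mitochondrial potassium channel, had 785 and 2465 counts with Fc-JAG1, 0 and 1991 with compE and 0, 0 and 0 in the washout. In such genes compE 1 looked like the washout and compE 2 like Fc-JAG1, and compE 1 was also the library with fewer detected genes. Slc25a53, of the mitochondrial carrier family (1419 and 2152 counts with Fc-JAG1, 1 and 1356 with compE), Zfp667, a zinc finger gene (1155 and 2046 against 0 and 958), Pdlim2, a PDZ and LIM protein (773 and 3103 against 0 and 1031), Arntl2, a clock transcription factor (744 and 2938 against 3 and 815), and Nlrx1, a mitochondrial NOD-like receptor (654 and 3715 against 0 and 1081), followed it, with 0 to 5 counts in the washout. Plekhg2, a guanine nucleotide exchange factor, was close to absent in compE, with 1465 and 5121 counts with Fc-JAG1, 0 and 57 with compE and 0, 0 and 0 in the washout. Tbc1d17, a RAB GTPase-activating protein, showed the opposite library, with 631 and 1629 counts with Fc-JAG1, 1911 and 1 with compE and 0, 0 and 0 in the washout. Efcab11, an EF-hand protein, Med31, a Mediator subunit, Snrk, a kinase of the SNF1 family, and Cmtm8, a MARVEL domain protein, were on in both compE libraries, with lower compE counts of 659, 33, 169 and 356.

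**Figure D4:**
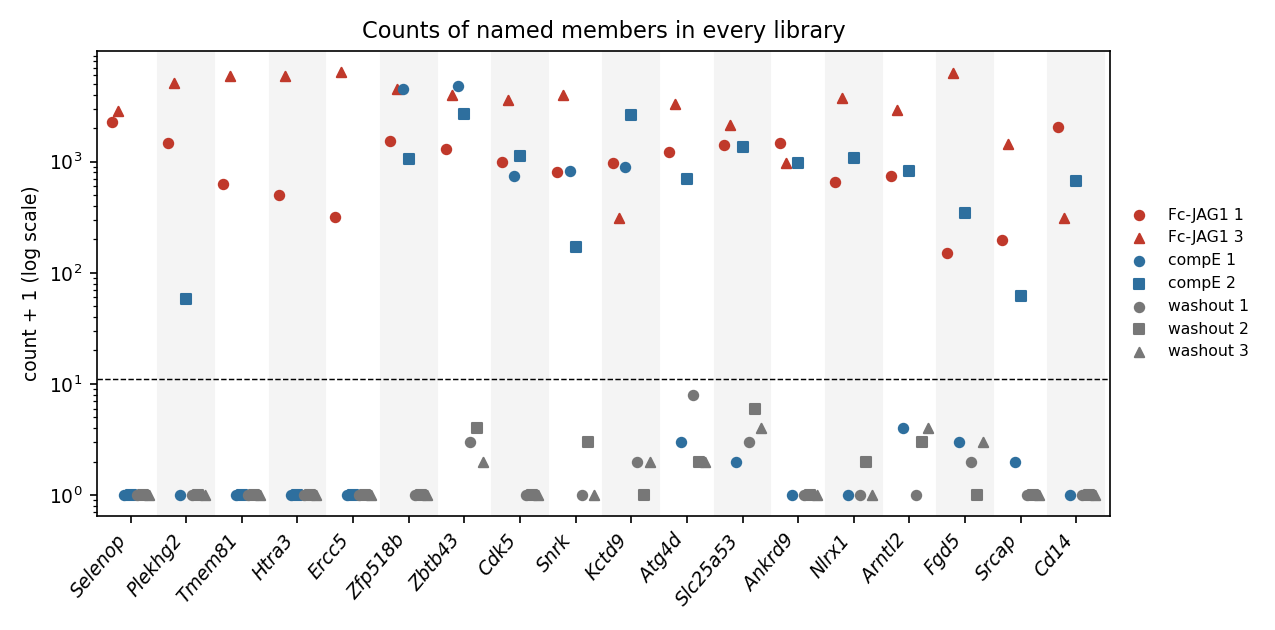
Counts plus 1 (y, log scale) of 18 named on/off genes (x) in each library, with Fc-JAG1 in red, compE in blue and the washout in gray, and circles, squares and triangles for numbers 1, 2 and 3. The dashed line marks the threshold of 10 counts. From left to right, genes off in both compE libraries or nearly so (Selenop to Ercc5) are followed by genes on in both (Zfp518b to Kctd9) and by genes on in compE 2 only (Atg4d to Cd14).

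By function, the lists were too short to read a share near the background from them. None of 40 filtered genes of the Notch pathway and none of 8 Notch target genes was among them, nor any of 65 genes of G1/S and replication or 77 of G2/M and mitosis, while 1.69% of all filtered genes were. Of 26 lists, 8 held an on/off gene, each 1 or 2. Fgd5, a CDC42 exchange factor used as a marker of hematopoietic stem cells, had 151 and 6271 counts with Fc-JAG1, 2 and 341 with compE and 1, 0 and 2 in the washout. Meis2, a homeobox gene, was the other on the stem cell list (2 of 32), with 49 and 67 counts with Fc-JAG1, 2 and 2 with compE and 2, 9 and 1 in the washout. Cd14, the lipopolysaccharide co-receptor of myeloid cells and the only gene of the myeloid (1 of 24) and cytokine (1 of 56) lists, had 2059 and 311 counts with Fc-JAG1, 0 and 664 with compE and 0, 0 and 0 in the washout. Fgd5 and Cd14 differed widely between the Fc-JAG1 libraries, and Meis2 lay just under the threshold in washout 2. Srcap, the ATPase of a histone exchange complex (1 of 62 chromatin remodeling genes), had 197 and 1426 counts with Fc-JAG1, 1 and 61 with compE and 0, 0 and 0 in the washout. Atg4d, a protease that processes ATG8 proteins (1 of 42 autophagy genes), had 1229 and 3292 counts with Fc-JAG1, 2 and 691 with compE and 7, 1 and 1 in the washout. Both Srcap and Atg4d were on in compE 2 only, and Ercc5 was the 1 gene on a list of 66 DNA repair genes, which does not include Chd1l and Mlh3. H2-Q7 (1 of 14 genes of MHC class I presentation) had 20 and 32 counts with Fc-JAG1, 1 and 11 with compE and 0, 3 and 0 in the washout, and is uncertain because it shares sequence with other H2-Q genes. Nr4a2, a nuclear receptor of the immediate early response (1 of 24), had 12 and 105 counts with Fc-JAG1, 4 and 517 with compE and 0, 0 and 1 in the washout.

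Further genes were grouped by role after the list was known, so the groups only order the description. Regulators of transcription were 19, with 8 on in both compE libraries and 6 in neither, beside 16.1% and 41.4% of all 174 genes. C2H2 zinc finger genes were 8 of 217 filtered ones (3.69%, against 1.69% of all filtered genes) and solute carriers 6 of 172 (3.49%). Secreted signals and inhibitors of signaling were 6, and 5 were off in both compE libraries, as were 41.4% of all 174 genes. Spry1, an inhibitor of receptor tyrosine kinase signaling, had 890 and 94 counts with Fc-JAG1 and 0 in every other library. Clec11a, a growth factor for hematopoietic progenitors, had 250 and 60 counts with Fc-JAG1 and 0 elsewhere, as did Il1a, the cytokine interleukin-1α, with 215 and 32. Hgf, the ligand of the MET receptor, had 730 and 11 counts with Fc-JAG1, 5 and 0 with compE and 3, 2 and 3 in the washout. All 4 were thus higher in Fc-JAG1 1. Fgf10, a fibroblast growth factor, was the exception in compE, with 334 and 187 counts with Fc-JAG1, 12 and 330 with compE and 3, 0 and 1 in the washout. Spry1, Clec11a, Il1a, Hgf, Fgf10, Serpinc1, Hps4, Mlh3 and the genes singled out for their promoters were chosen for the text after their values were seen.

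Proteins of plasma and proteases of the extracellular space were 6, and none was on in both compE libraries, beside 16.1% of all 174 genes. Serpinc1, which encodes antithrombin, a liver product, had 618 and 497 counts with Fc-JAG1, 0 and 220 with compE and 0, 0 and 0 in the washout. Of 16 hepatocyte markers, a list made after the genes were known, 2 and 4 had 10 or more counts with Fc-JAG1, 0 and 3 with compE and 0, 3 and 0 in the washout. Their summed level was 27.6 and 155 CPM with Fc-JAG1, 0.457 and 20.6 CPM with compE and 0.508, 41.6 and 0.505 CPM in the washout. Alb (albumin) had 1 and 2355 counts with Fc-JAG1, 3 and 0 with compE and 1, 0 and 0 in the washout. Trf (transferrin) had 819 and 450 counts with Fc-JAG1, 2 and 416 with compE and 3, 1065 and 0 in the washout. Alb was thus high in Fc-JAG1 3 alone, as was Ahsg of the same list, with 1241 counts there and 0 elsewhere. Trf was on in both Fc-JAG1 libraries, in compE 2 and in washout 2. Apoh, also listed, had 0 and 0 counts with Fc-JAG1, 1 and 135 with compE and 1, 95 and 3 in the washout. Fga had 78 and 0 counts with Fc-JAG1, 0 and 146 with compE and 0, 90 and 1 in the washout. Afp, Ttr and Apoa1 were at 0 to 2 counts in every library. The part of such transcripts in the levels of Selenop and Serpinc1 was not tested.

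Among the other regulators of transcription, zinc finger genes were spread over the compE classes. Zfp113 had 394 and 417 counts with Fc-JAG1, 1557 and 580 with compE and 1, 0 and 1 in the washout. Zfp951 had 442 and 974 counts with Fc-JAG1, 11 and 895 with compE and 0, 2 and 0 in the washout. Zfp72 had 934 and 10 counts with Fc-JAG1, 0 and 1 with compE and 0, 1 and 1 in the washout. Zfp113 was thus on in both compE libraries and close in the Fc-JAG1 libraries, whereas Zfp72 was off in compE and at the threshold in Fc-JAG1 3. Gtf3c5, a subunit of the RNA polymerase III factor TFIIIC, had 238 and 62 counts with Fc-JAG1, 1771 and 420 with compE and 0, 4 and 0 in the washout, so both compE libraries lay above both Fc-JAG1 libraries in CPM. Mxd4, a MAX-binding antagonist of MYC, had 82 and 287 counts with Fc-JAG1, 0 and 0 with compE and 1, 0 and 0 in the washout. Pbx4, a TALE homeobox gene and the partner class of Meis2, had 34 and 318 counts with Fc-JAG1, 1 and 1 with compE and 1, 1 and 2 in the washout. Mxd4 and Pbx4 were thus at 0 to 2 counts outside Fc-JAG1. Runx1t1, the ETO corepressor, was near the threshold with 22 and 10 counts with Fc-JAG1, 0 and 6 with compE and 2, 3 and 6 in the washout, and Trp63, a p53 family gene of epithelia, had 80 and 15 counts with Fc-JAG1, 26 and 10 with compE and 5, 4 and 4 in the washout. The genes in this paragraph and those named for matrix, kinases, cilia, muscle and transport below were also chosen after their values were seen.

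Genes of the extracellular matrix, adhesion and cell polarity were 8, with 2 on in both compE libraries and 3 in neither. Over all 174 genes, these shares were 16.1% and 41.4%. Llgl2, a protein of basolateral polarity, had 501 and 324 counts with Fc-JAG1, 987 and 74 with compE and 0, 0 and 0 in the washout. Pard6g, a PAR6 polarity protein, had 84 and 187 counts with Fc-JAG1, 75 and 16 with compE and 0, 7 and 1 in the washout. Col27a1, a fibrillar collagen, had 66 and 4063 counts with Fc-JAG1, 2 and 9 with compE and 0, 4 and 3 in the washout. The polarity genes Llgl2 and Pard6g were the 2 that compE held in both libraries, and Col27a1 was high in Fc-JAG1 3 alone. Sdc4, a heparan sulfate proteoglycan, had 50 and 444 counts with Fc-JAG1, 0 and 0 with compE and 1, 0 and 0 in the washout. Cdh11, a cadherin of mesenchyme, had 106 and 340 counts with Fc-JAG1, 9 and 122 with compE and 7, 9 and 5 in the washout. Cdh11 therefore stood above 0 in every library and just inside the rule, with compE 1 at the washout level.

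Kinases and phosphatases were 8, with 4 on in both compE libraries, beside 16.1% of all 174 genes. Grk3, a kinase of G protein-coupled receptors, had 413 and 232 counts with Fc-JAG1, 233 and 496 with compE and 3, 0 and 8 in the washout. Ptpn21, a protein tyrosine phosphatase, had 867 and 351 counts with Fc-JAG1, 1 and 2301 with compE and 6, 1 and 4 in the washout. Stk36, the fused-family kinase of motile cilia, had 26 and 4202 counts with Fc-JAG1, 26 and 9 with compE and 7, 7 and 2 in the washout. Grk3 was even over the Fc-JAG1 and compE libraries, while Stk36 was high in Fc-JAG1 3 alone and Ptpn21 highest in compE 2. The genes of cilia and centrosomes were 5, and Ift27, of the intraflagellar transport complex, had 496 and 17 counts with Fc-JAG1, 0 and 207 with compE and 1, 2 and 0 in the washout. Contractile proteins of muscle and hair cells were 5, and 4 were off in both compE libraries, beside 41.4% of all 174 genes. Mybpc3, the cardiac myosin-binding protein C, had 57 and 837 counts with Fc-JAG1, 0 and 0 with compE and 2, 0 and 0 in the washout. Tnni2, a troponin I of fast muscle, had 54 and 109 counts with Fc-JAG1, 1 and 0 with compE and 0, 0 and 0 in the washout. Both were at 0 to 2 counts outside Fc-JAG1.

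Regulators of small GTPases were 6, and none was on in both compE libraries or off in both. Over all 174 genes, 16.1% were on in both and 41.4% off in both. Rab11fip2, a RAB11 effector of recycling endosomes, had 1231 and 164 counts with Fc-JAG1, 3 and 1013 with compE and 1, 6 and 1 in the washout. Arap2, a GTPase-activating protein for ARF proteins, had 1246 and 54 counts with Fc-JAG1, 1 and 869 with compE and 2, 5 and 5 in the washout. Both were higher in Fc-JAG1 1, and their compE 2 level lay between the Fc-JAG1 libraries. Of the solute carriers, Slc35d2, a nucleotide sugar transporter, was the 1 on in both compE libraries, with 34 and 1130 counts with Fc-JAG1, 480 and 693 with compE and 8, 6 and 3 in the washout. Of the genes without an ordinary symbol, Gm10384, a lincRNA, had 1526 and 3143 counts with Fc-JAG1, 0 and 0 with compE and 2, 2 and 0 in the washout. The pseudogene Ppp4r1l-ps had 1033 and 6444 counts with Fc-JAG1, 3 and 3 with compE and 1, 1 and 1 in the washout. Both were thus at 0 to 3 counts outside Fc-JAG1, and the reads of the pseudogene are uncertain because a parent gene can share them.

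Hps4, of a complex for lysosome-related organelles, had 117 and 1992 counts with Fc-JAG1, 0 and 1477 with compE and 0, 0 and 0 in the washout. Mlh3, a MutL mismatch repair protein, had 497 and 21 counts with Fc-JAG1, 1 and 402 with compE and 0, 0 and 1 in the washout. Both genes were on in compE 2 only. By annotation, 173 of the genes were placed by GENCODE M21, and 135 (78.0%) were protein coding, against 91.7% of filtered genes. The others were 14 processed pseudogenes, 12 lincRNAs, 5 antisense genes, 4 processed transcripts, 2 genes to be experimentally checked and 1 transcribed pseudogene. Predicted (Gm) genes were 28 of 570 filtered ones (4.91%) and RIKEN clones 11 of 252 (4.37%). Protein-coding on/off genes had a median exon length of 4844 bp and a median span of 35884 bp, against 4975 and 31540 bp for filtered ones. Of the 173, 76 overlapped another annotated gene (43.9%, against 54.5% of filtered genes). A gene with 10 or more counts in a washout library was overlapped by 22. A gene with 10 or more counts in both Fc-JAG1 libraries was overlapped by 15, among them Atg4d (by Kri1) and Ccdc51 (by Tma7). No share over filtered genes was taken for these counts of 22 and 15. Reads of overlapping, antisense and pseudogenes cannot be assigned with certainty here, and 4 pairs of the genes lay within 100000 bp of each other.

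The number of genes depended on which libraries were asked to be on. Of the 10 ways to take 2 of the 5 Fc-JAG1 and washout libraries as on and the other 3 as off, the labelled one gave 174 genes, the fourth highest. Fc-JAG1 1 with washout 2 gave 1419, Fc-JAG1 3 with washout 2 gave 261, and washout 2 with washout 3 gave 221. Washout 1 with washout 2 gave 141, Fc-JAG1 1 with washout 3 gave 131, and Fc-JAG1 1 with washout 1 gave 86. Splits of the same kind thus differed by more than 10-fold in number. The smallest numbers were 56 for Fc-JAG1 3 with washout 1, 55 for Fc-JAG1 3 with washout 3 and 42 for washout 1 with washout 3. The 9 other splits had a median of 131, and 3 of them exceeded the labelled split. All 3 had washout 2 on, the library with the most detected genes. With the compE libraries, 214 genes were on in both Fc-JAG1 and off in both compE libraries, 190 were on in both compE and off in all 3 washout libraries, and 278 were on in both compE and off in both Fc-JAG1 libraries.

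**Figure D5:**
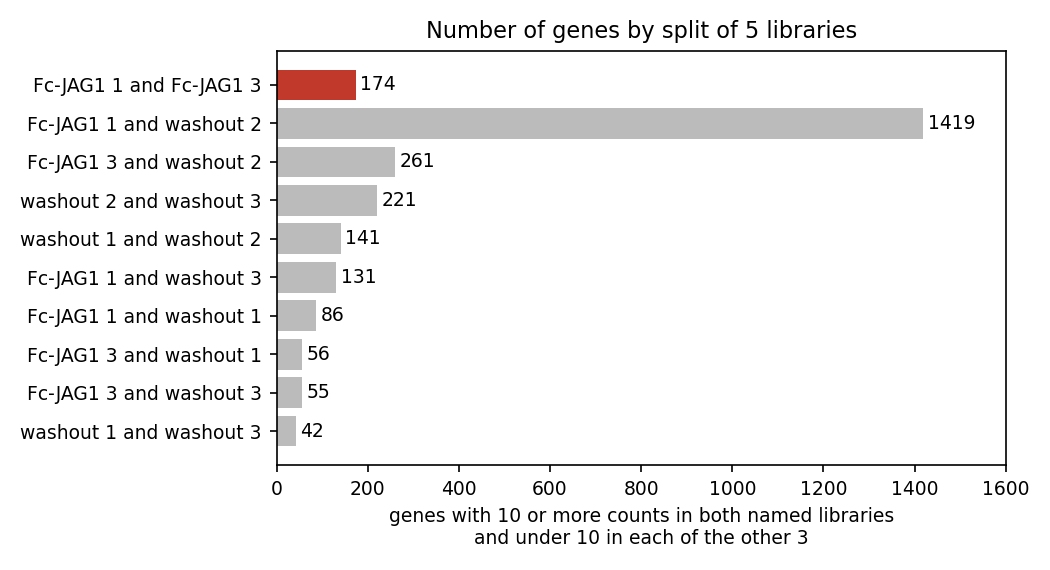
Number of genes (x, from 0) with 10 or more counts in both libraries named at the left and under 10 in each of the other 3, for the 10 splits of the Fc-JAG1 and washout libraries. The labelled split (red, 174) lies below the 3 highest of the 9 others (gray, 42 to 1419).

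Fits over all 10311 filtered genes placed no on/off gene past the adjusted threshold of 0.05 in edgeR's quasi-likelihood test, in any of the 3 comparisons, as it placed none of all filtered genes (0%). The comparisons share libraries with the rule, so the counts describe the genes and test nothing. For Fc-JAG1 against the washout, 108 of 174 had an unadjusted edgeR p under 0.05 and a higher level with Fc-JAG1 (3.85% of filtered genes), and DESeq2 called 127 higher (15.7%), or 124 with no replicate block (1.84% of the 8349 genes to which that fit gave an adjusted p). For compE against the washout, these numbers were 18 (1.42%), 22 (5.66%) and, with no replicate block, 18 (1.8% of 8349). For Fc-JAG1 against compE they were 20 (1.9%), 41 (9.18%) and, with no replicate block, 47 (1.02% of 8349). DESeq2 also called Cntrob lower with Fc-JAG1 than with compE, the only call in that direction (2.21% of filtered genes were lower). The median log2 fold change of the 174 genes was 9.13 for Fc-JAG1 against the washout, 3.02 for compE against the washout and 5.27 for Fc-JAG1 against compE. Over all filtered genes the medians were 0.44, -0.10 and 0.43. With no replicate block the medians of the 174 genes were 7.62, 2.57 and 2.63, beside -0.16, -0.14 and 0 over all filtered genes. Fitted values of genes at 0 counts depend on the prior count and are no bound.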

How the data were processed

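Reads were trimmed (cutadapt 4.2), aligned to GRCm38, or mm10 (STAR 2.7.8), and, if uniquely aligned, counted per gene (featureCounts of Subread 2.0.1) by the authors. The deposited raw counts hold 55487 genes and are whole numbers with no normalization, and the deposited filtered counts keep 10311 genes. The deposited log2 values were not used. The methods name the gene as the feature that was counted. Whether this took in introns is not spelled out there, and strand was not stated. CPM was computed on library totals.

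The on/off genes and all lists were chosen with earlier results of these data known, and the role groups and the hepatocyte list after the genes were known. Fits used R 4.3.3 with edgeR 4.0.16 (bias-adjusted deviances, TMM) on all 7 libraries, with sample number and condition as terms as in the methods, and Benjamini-Hochberg adjustment over all genes tested. DESeq2 1.42.0 (Wald test) was an alternative, and calls also needed 10 counts in 2 libraries of a condition compared. Scripts were tested on simulated data. Some items are not reported here. Each count of 0 was set against a floor of 3 counts.

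Libraries with 1 number were treated as 1 biological sample, because the labels name an embryo and the methods treat samples as paired. Deviations of same-numbered libraries correlated at -0.09 to 0.09 over 5 pairs, and those of libraries with different numbers at -0.098 to 0.098. These values do not set same-numbered libraries apart from the others. Within the Fc-JAG1 and compE groups, the deviations mirror each other. P-values measure only the spread between these libraries. Genes named were, among the 130 with symbols other than Gm, Rik, pseudogene or clone names, the 20 with the highest lower Fc-JAG1 CPM, the 8 with the highest lower compE CPM, the 8 highest of those off in compE, those on the lists and those at the threshold, with the exceptions said. Names and positions came from GENCODE M21 (55227 genes matched), and promoters from RefSeq. Alternatives were other thresholds, scalings and filters, fits with no replicate block and leaving out each library.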

Additional observations from a re-analysis of the deposited data

How the results depend on the processing

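The number of on/off genes was 42 when the washout had to be at 0 and 59 when both Fc-JAG1 libraries needed 100 counts. Leaving out a library gave 215 to 1269 genes: 1269 without Fc-JAG1 3, 1135 without washout 2, 682 without Fc-JAG1 1, 216 without washout 3 and 215 without washout 1. Without washout 1 and washout 3, an alternative added after the data were seen, it was 292. Genes on in both compE libraries numbered 47 at 5 counts and 15 at 100 counts, and 90 without compE 1 and 40 without compE 2. In edgeR no on/off gene passed the adjusted threshold in any comparison, with another scaling, with no filter, with no replicate block or without any 1 library (0 to 0 in each). In either direction, DESeq2 called 127 for Fc-JAG1 against the washout, 22 for compE against the washout and 42 for Fc-JAG1 against compE. Of all 10311 filtered genes it called 2108, 962 and 1175. With no replicate block it called 124, 18 and 47 on/off genes, beside 388, 325 and 190 of 8349 genes. The cause of the difference between the tools was not tested.

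Scaling moved the median log2 fold change of filtered genes for Fc-JAG1 against the washout (0.44 with TMM, 0.07 with size factors and 0.71 with totals). That of the on/off genes was 9.13, 8.85 and 9.24, and their medians kept their sign in all 3 comparisons. Leaving out each library gave them medians of 7.59 to 9.61 for Fc-JAG1 against the washout and 0.93 to 3.37 for compE against the washout. For Fc-JAG1 against compE they were 2.96 (without compE 1) to 6.02 (without washout 2), and these groups share number 1 only. Washout 1 and washout 3 had 6265 and 7585 genes with 10 or more counts, and 21652927 and 31680553 counts in all. Washout 2 had 12351 such genes and 30059615 counts, and by the rule the on/off genes were under 10 there too. The part of gene detection in the choice of the on/off genes was not tested. With 2 or 3 libraries a group and no molecular identifiers, a high count can come from few captured molecules.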
